A study of Mus musculus with 4 samples.

Results

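Transcripts of the RNA splicing machinery were followed in natural killer T (NKT) cells before and after stimulation through their antigen receptor. The members were all gene symbols in the count table that begin with Snrp, Srsf, Sfrs, Hnrnp, Sf3a, Sf3b or Prpf, or with Lsm and a digit. They numbered 75 of 12020 genes in the table, with 46 in a snRNP group (small nuclear ribonucleoprotein particles, with the SF3, Prp and LSm proteins), 10 in an SR group and 19 in a hnRNP group. No symbol began with Sfrs. All 75 passed the filter on low counts that left 11312 genes tested. The rule used names and no measured value, but it was chosen with earlier results of these data known.

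The 2 groups were resting NKT cells and NKT cells stimulated on plates coated with tetramers of mouse CD1d that carried the lipid PBS57, with 2 libraries each. CD1d presents lipids to the NKT cell receptor. All 4 libraries came from C57BL/6 mice of 10 to 12 weeks that were Va14 Tg.cxcr6gfp/+, that is, they carried a transgene of the Va14 receptor chain and GFP at 1 Cxcr6 allele, and the cells were sorted as GFPhi. The labels give liver as the tissue, although their protocols also name spleens and, for the RNA, islets. They do not say how long the cells were stimulated, or whether mice were pooled. Libraries are called 4 and 5 after the deposited column names, and every pair of values below is given in that order, library 4 first. Separate cultures or mice are not named for the 2 libraries of a group, so each p-value measures a spread that may be technical.

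The spliceosome removes introns from precursor mRNA. Its snRNPs are each built on a small nuclear RNA (snRNA): U1 pairs with the start of the intron, U2 with the branch point, and U4, U6 and U5 join as a tri-snRNP before catalysis. A ring of Sm proteins closes around the Sm site of U1, U2, U4 and U5, and a related ring of LSm proteins binds the end of U6. SR proteins, named for their repeats of arginine and serine, mostly promote the use of exons they bind, whereas hnRNP proteins coat nascent transcripts and often oppose exon use. In activated T cells several splicing choices change, among them those of the phosphatase CD45.

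The snRNAs lack a poly(A) tail and the libraries were made from poly(A) RNA, but snRNA sequences show what the Sm proteins and Lsm10 and Lsm11 bind. Each is printed 5′ to 3′ in DNA letters from GENCODE release M21 (GRCm38). Capitals mark the match to ATTTNT on the given strand, which lies within the Sm site of U1 and U2 and at the corresponding place in the histone-processing U7. Rnu1a1 lies at chr11:87422867-87423030 (plus strand), Rnu2-10 at chr11:101658238-101658428 (plus) and Rnu7 at chr6:124741225-124741286 (minus).
U1: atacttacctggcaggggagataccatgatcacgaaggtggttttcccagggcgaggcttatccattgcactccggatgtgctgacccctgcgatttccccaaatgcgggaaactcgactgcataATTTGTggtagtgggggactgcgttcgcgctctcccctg
U2: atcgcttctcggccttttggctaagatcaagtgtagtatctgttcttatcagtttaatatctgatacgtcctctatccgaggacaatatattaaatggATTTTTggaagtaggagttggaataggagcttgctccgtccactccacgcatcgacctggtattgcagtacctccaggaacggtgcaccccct
U7: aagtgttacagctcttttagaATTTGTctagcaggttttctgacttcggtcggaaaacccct

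Library totals ranged from 4168438 to 5495521 counts. Levels are given as CPM, that is, counts scaled to a common library size, here after TMM normalization. Over all 11312 genes, 1620 were called higher (14.3%) and 1366 lower (12.1%) at an adjusted p below 0.05, and the median log2 fold change of tetramer over resting was -0.06. With library totals in place of TMM that median was -0.35, so directions are relative to the scaling. All 12 NKT and T cell markers were present in every library, with a summed level of 4040 to 4501 CPM at rest and 3993 to 4690 CPM after stimulation. Of these, Zap70 rose (149 and 188 CPM to 478 and 369 CPM), and the NK receptor gene Klrb1c (114 and 174 CPM to 2.86 and 13.6 CPM, log2 -4.13 ± 0.52, adjusted p = 2.91e-06) and Cxcr6 (1617 and 1102 CPM to 414 and 718 CPM, adjusted p = 0.0190) fell. Cxcr6 drives the GFP by which the cells were sorted. Markers of other cells were also read: 5 of 6 erythroid markers were listed and all 5 fell (146 and 410 CPM summed at rest, 35.8 and 80.7 CPM after stimulation), and 4 of 4 islet transcripts summed to 251 and 931 CPM at rest and 224 and 410 CPM after stimulation, none of them called. Of hepatocyte markers 2 of 8 were listed (24.9 and 37.2 CPM against 8.18 and 11.5 CPM), of B cell markers 4 of 6 (21.3 and 29.7 against 13.3 and 16.6 CPM), of macrophage markers 4 of 8 (24.9 and 31.8 against 9.82 and 12.3 CPM), of neutrophil markers 2 of 5 (19.5 and 17.95 against 1.84 and 3.24 CPM) and of endothelial markers 1 of 4 (Pecam1, whose call was lower). The table lists no gene with a count of 0 in any library, so an unlisted marker (Alb, Lyz2, Pax5 and others) was not analysed here. The part of these cells in the results below was not tested, and in such bulk libraries fewer cells of a type and less RNA per cell cannot be told apart.

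After stimulation 28 of the 75 splicing transcripts rose (37.3%, where 14.3% of all tested genes rose) and 2 fell (2.67%, where 12.1% of all tested genes fell). The transcripts that rose furthest were Lsm7, Snrpd1, Snrpa and Snrpa1, all of snRNPs, and the 2 that fell were Prpf18 and Hnrnph3. Log2 fold changes were above 0 for 60 members, where 48.0% of all tested genes were above 0. Both tetramer libraries lay above both resting libraries for 45 members, a pattern seen in 31.6% of all tested genes, and below them for 5 members, a pattern seen in 33.7% of all tested genes. The median log2 fold change was 0.87 over the members, with quartiles at 0.22 and 1.42. The members' share of all counts was 1.12% and 0.872% at rest, and 1.41% and 1.23% after stimulation.

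**Figure D1:**
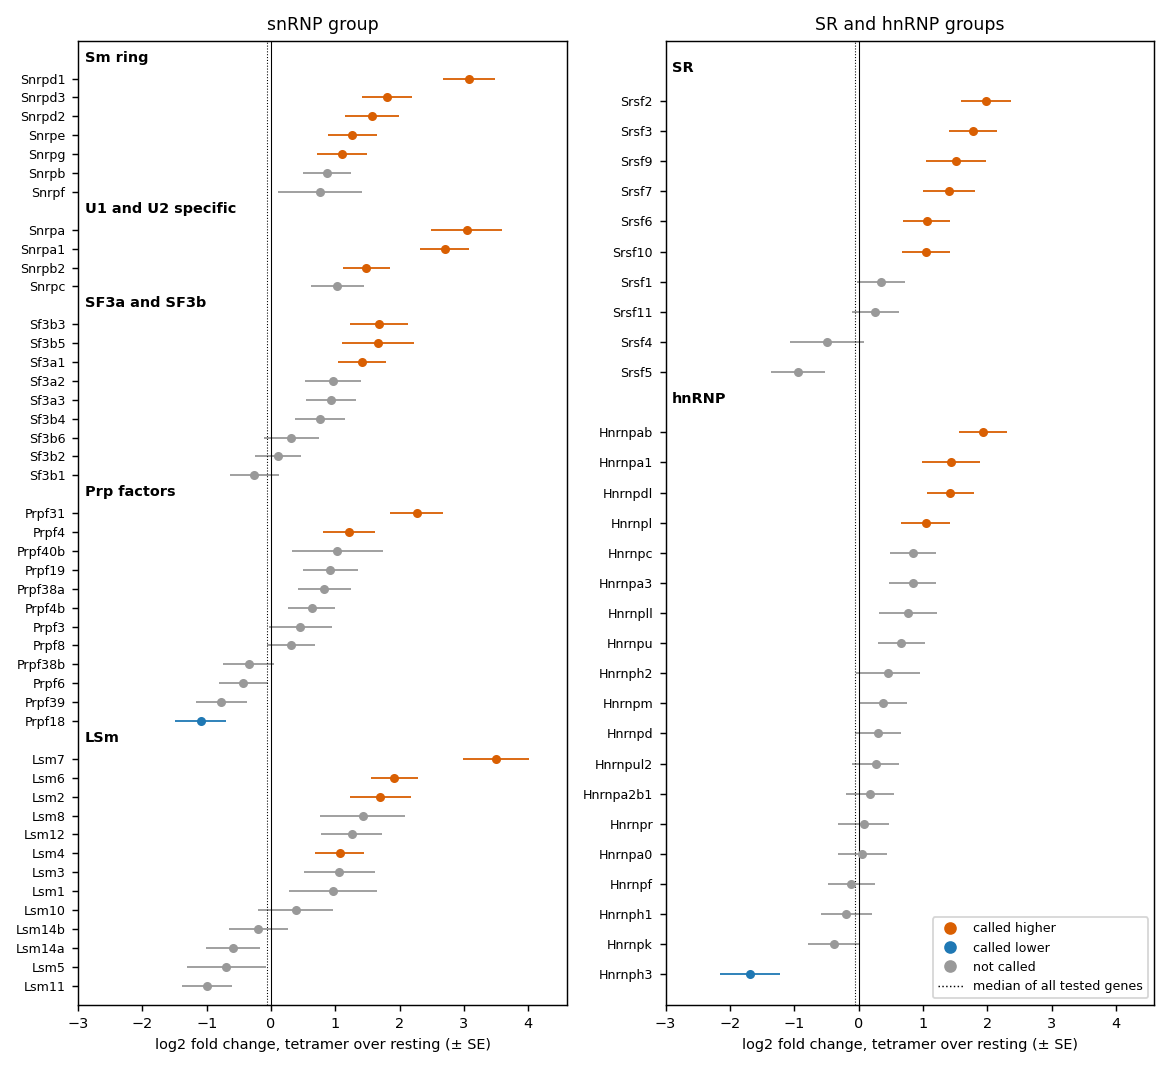
Log2 fold change of tetramer over resting (x axis, with its standard error as a bar) for the members, grouped by role, with 1 Prp factor not drawn. Orange points were called higher, blue called lower (2) and grey not called, and the dotted line marks the median of all tested genes at -0.06.

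The Sm proteins form the ring common to U1, U2, U4 and U5. Of their 7 transcripts 5 rose (Snrpd1, Snrpd3, Snrpd2, Snrpe and Snrpg) and 0 fell, beside 14.3% and 12.1% of all tested genes. Their median log2 fold change was 1.26. Snrpd1, which encodes SmD1, stood at 38.1 and 60.5 CPM at rest and at 469 and 361 CPM after stimulation. Both tetramer values lay far above both resting values, and the fold of 8.41 was the largest in the ring (log2 3.07 ± 0.40 (SE), adjusted p = 4.04e-06). Its partner in the ring, SmD2 (Snrpd2), went from 35.0 and 57.9 to 192 and 83.3 CPM, and SmD3 (Snrpd3) from 36.7 and 30.1 to 133 and 101 CPM, with log2 fold changes of 1.57 ± 0.42 (adjusted p = 0.00715) and 1.81 ± 0.39 (adjusted p = 0.00130). Snrpe and Snrpg, which encode SmE and SmG, rose by smaller folds of 2.40 and 2.15 (adjusted p = 0.0153 and 0.0363). SmB (Snrpb) lay higher in both tetramer libraries, at 489 and 273 CPM against 196 and 221 CPM, but its difference was not called (log2 0.87, adjusted p = 0.0857). SmF (Snrpf) was read at only 2.99 to 16.6 CPM and its groups overlapped (adjusted p = 0.411). The calls of Snrpd2, Snrpe and Snrpg were lost without tetramer library 4 (adjusted p = 0.362, 0.295 and 0.447). Those of Snrpe and Snrpg were also lost without resting library 4 (0.0885 and 0.223) and with library totals (0.0509 and 0.109). Conversely, Snrpf was called without resting library 4 (log2 1.86, adjusted p = 0.0448). With single libraries left out, Snrpd1 ranged from 2.79 to 3.47, Snrpd3 from 1.612 to 1.998 and Snrpd2 from 0.86 to 2.06.

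Beside SF3a and SF3b, described further on, 4 members encode proteins particular to U1 or U2 snRNPs. Of these 3 rose and 0 fell, beside 14.3% and 12.1% of all tested genes. The U1 protein gene Snrnp70, outside the members by its symbol, was not called (log2 -0.17 ± 0.37, adjusted p = 0.769). Its level was 139 and 98.9 CPM at rest and 101 and 111 CPM after stimulation. Snrpa encodes U1-A, which binds a stem loop of U1 snRNA. It stood at 3.94 and 4.91 CPM at rest and reached 51.2 and 22.05 CPM after stimulation. The tetramer values differed from each other more than the resting values did, yet both lay above them, by a fold of 8.23 (log2 3.04 ± 0.55, adjusted p = 0.000239). Snrpa1, which encodes the U2 protein U2-A′, was read at 88.05 and 94.9 CPM at rest and at 562 and 627 CPM after stimulation. Here the libraries within each group lay close together, and the log2 fold change of 2.70 ± 0.38 (adjusted p = 1.19e-05) stayed between 2.63 and 2.80 when any library was left out. That of Snrpa ranged from 2.33 to 3.53. The binding partner of U2-A′ on U2, U2-B″ (Snrpb2), rose from 135 and 138 CPM to 434 and 331 CPM (log2 1.48 ± 0.37, adjusted p = 0.00421). Its log2 fold change ranged from 1.29 to 1.67 over left-out libraries, and the call was lost without tetramer library 4. The U1-C transcript Snrpc was not called (log2 1.03 ± 0.42, adjusted p = 0.0674): tetramer library 4 stood at 313 CPM, but tetramer library 5, at 120 CPM, fell between the resting values of 77.3 and 135 CPM. It was called without tetramer library 5 (log2 1.57, adjusted p = 0.0131) and without resting library 5 (1.51, adjusted p = 0.0133).

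The LSm genes went several ways. Lsm2 to Lsm8 encode the ring on U6, and of these 7 transcripts Lsm7, Lsm6, Lsm2 and Lsm4 rose and none fell. Over all tested genes 14.3% rose and 12.1% fell. Lsm7 rose furthest of all 75 members, from 3.73 and 7.05 CPM at rest to 79.8 and 42.1 CPM after stimulation. The lower tetramer value was still well above the higher resting value, and the fold was 11.3 (log2 3.49 ± 0.51, adjusted p = 1.82e-05), with a range of 2.98 to 4.05 when single libraries were left out. Lsm6 rose evenly, from 91.4 and 92.7 to 373 and 323 CPM (log2 1.92 ± 0.37, adjusted p = 0.000444). Lsm2 rose from 13.7 and 43.8 to 129.7 and 57.04 CPM (log2 1.70 ± 0.48, adjusted p = 0.0100). Its libraries disagreed within both groups, leaving out library 4 of either group ended the call (adjusted p = 0.0826 without the resting and 0.307 without the tetramer one), and its log2 fold change ranged from 1.01 to 2.79. Lsm4 rose by 1.07 ± 0.38 (adjusted p = 0.0367), a call lost with library totals and without any of the 4 libraries (adjusted p = 0.0501 to 0.392). The remaining ring members were read at 2.69 to 24.1 CPM and were not called, with log2 fold changes of 1.43 ± 0.66 for Lsm8, 1.06 ± 0.55 for Lsm3 and -0.70 ± 0.61 for Lsm5. Lsm8 was called without resting library 5 (adjusted p = 0.0306).

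Outside the U6 ring no LSm transcript was called. Lsm1, which takes the place of Lsm8 in the cytoplasmic ring that promotes mRNA decapping, had overlapping groups (2.69 and 5.34 CPM against 12.3 and 3.44 CPM, adjusted p = 0.304). Lsm11, a subunit of the U7 snRNP that processes histone mRNA, stood at 87.8 and 145 CPM at rest and 55.5 and 61.1 CPM after stimulation. Both tetramer values were the lower ones, with a log2 fold change of -0.996 ± 0.38 that did not pass the threshold (adjusted p = 0.0537). It was called lower with library totals (adjusted p = 0.0148), with the stricter filter on low counts (0.0497) and without resting library 4 (0.0223). Its U7 partner Lsm10 had a log2 fold change of 0.38 ± 0.58 (adjusted p = 0.658). Lsm12 lay higher in both tetramer libraries (55.2 and 42.9 CPM against 10.4 and 30.8 CPM, adjusted p = 0.0504) and was called without resting library 5 (adjusted p = 0.000992), with RLE factors (0.0497), by limma-voom (0.0309) and with the stricter filter (0.0463). Lsm14a and Lsm14b, which belong to cytoplasmic mRNA granules, were at -0.59 ± 0.42 and -0.20 ± 0.46 on the log2 scale (adjusted p = 0.305 and 0.783).

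SF3a and SF3b are the parts of the U2 snRNP that hold the branch point. Of 9 transcripts 3 rose (Sf3b3, Sf3b5 and Sf3a1, 33.3%) and 0 fell, beside 14.3% and 12.1% of all tested genes. The median log2 fold change was 0.93. Sf3b3, a scaffold of SF3b, went from 18.02 and 12.2 to 54.4 and 42.1 CPM (log2 1.67 ± 0.45, adjusted p = 0.00749). Sf3a1 went from 50.1 and 41.9 to 119 and 126 CPM (log2 1.41 ± 0.38, adjusted p = 0.00710). The small subunit Sf3b5 reached 37.4 CPM in tetramer library 4 but 12.1 CPM in tetramer library 5, against 6.84 and 8.76 CPM at rest (log2 1.67 ± 0.56, adjusted p = 0.0281), and its log2 fold change ranged from 0.65 to 2.27 over left-out libraries. By contrast, the subunit that cradles the branch point adenosine, Sf3b1, was at 792 and 491 CPM at rest and 486 and 587 CPM after stimulation. These ranges overlapped (log2 -0.26 ± 0.38, adjusted p = 0.643). Sf3b2 was nearly level, at 392 and 399 CPM against 402 and 451 CPM (adjusted p = 0.851). Sf3a2, Sf3a3, Sf3b4 and Sf3b6 had log2 fold changes of 0.96, 0.93, 0.76 and 0.31, none called, although Sf3a2 was called without resting library 4 (adjusted p = 0.0196). The calls of Sf3b3, Sf3b5 and Sf3a1 were lost without tetramer library 4 (adjusted p = 0.132, 0.704 and 0.0540). That of Sf3a1 was also lost without tetramer library 5 (0.0511), and that of Sf3b5 with library totals and by limma-voom (0.0573 and 0.0672).

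Of 13 Prp factors 3 rose (23.1%), among them Prpf31 and Prpf4, and 1 fell (7.69%), beside 14.3% and 12.1% of all tested genes. Prpf31, which tethers U4/U6 to U5 in the tri-snRNP, rose from 44.3 and 68.2 CPM at rest to 171 and 369 CPM after stimulation. Unlike most members it was higher in tetramer library 5 than in library 4, and both stood clear of the resting pair (log2 2.26 ± 0.41, adjusted p = 0.000247, range 1.61 to 2.73 over left-out libraries). Prpf4, of the same tri-snRNP, rose from 31.5 and 30.1 to 77.96 and 64.5 CPM (log2 1.21 ± 0.40, adjusted p = 0.0268). The call of Prpf4 was lost without any of the 4 libraries and with library totals (adjusted p = 0.0541 to 0.248). The factor that fell, Prpf18, acts in the second step of splicing. It was at 66.3 and 75.01 CPM at rest and at 31.9 and 34.2 CPM after stimulation. The groups were well apart, and the level fell by a fold of 2.14 (log2 -1.10 ± 0.40, adjusted p = 0.0422). This call was lost when any library was left out (adjusted p = 0.0523 to 0.300). Prpf8, the U5 protein at the catalytic centre, was at 99.4 and 66.9 CPM against 96.8 and 109 CPM, which overlap (adjusted p = 0.573). The other 8 factors, Prpf40b, Prpf19, Prpf38a, Prpf4b, Prpf3, Prpf38b, Prpf6 and Prpf39, spanned -0.77 to 1.03 on the log2 scale and were not called. Of these, Prpf39 was called lower without resting library 5 and with library totals (adjusted p = 0.0491 and 0.0426), and Prpf19 higher without resting library 5 (0.0172).

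Among the 10 SR proteins 6 rose and 0 fell, beside 14.3% and 12.1% of all tested genes. The median log2 fold change was 1.06. Srsf2 and Srsf3, founding members of the family that bind exonic enhancers, rose furthest. Srsf2 was at 97.2 and 88.04 CPM at rest and at 484 and 247 CPM after stimulation (log2 1.98 ± 0.39, adjusted p = 0.000578, range 1.43 to 2.39 over left-out libraries). Srsf3, which also takes part in mRNA export, was at 176 and 165 CPM at rest and at 615 and 555 CPM after stimulation. Its libraries lay close together within each group, and its log2 fold change of 1.78 ± 0.37 (adjusted p = 0.000892) ranged only from 1.72 to 1.86. Srsf7, close in sequence to Srsf3, went from 41.8 and 61.3 to 186 and 87.0 CPM (log2 1.40 ± 0.41, adjusted p = 0.0121), and Srsf9 from 12.4 and 13.9 to 40.5 and 35.0 CPM (log2 1.52 ± 0.46, adjusted p = 0.0165). Srsf6 and Srsf10 rose by folds of 2.09 and 2.07 (adjusted p = 0.0314 and 0.0352). SR genes also make transcripts with a premature stop that are degraded, and counts per gene do not separate these from coding transcripts.

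The other 4 SR transcripts were not called. Srsf1, also known as SF2, was at 325.5 and 179 CPM at rest and at 360 and 284 CPM after stimulation, with overlapping groups (log2 0.35 ± 0.38, adjusted p = 0.520). Srsf11 was at 324 and 219 CPM against 317 and 331 CPM (adjusted p = 0.637). Srsf5 stood at 177 CPM in resting library 4 but at 60.5 CPM in resting library 5, next to 58.5 and 65.3 CPM after stimulation, so its log2 fold change of -0.94 ± 0.42 (adjusted p = 0.0980) rested on resting library 4. It was 0.05 without that library and -1.49 without resting library 5, where it was called lower (adjusted p = 0.00584), as it was with library totals (0.0257). Srsf4 was at -0.49 ± 0.57 (adjusted p = 0.556). Of the SR calls, those of Srsf6, Srsf7, Srsf9 and Srsf10 were lost without tetramer library 4 (adjusted p = 0.133, 0.421, 0.176 and 0.188). Calls were also lost without tetramer library 5 (Srsf6, Srsf9 and Srsf10), without resting library 4 (Srsf7 and Srsf10), without resting library 5 (Srsf6 and Srsf10) and with library totals (Srsf6 and Srsf10).

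Of 19 hnRNP transcripts 4 rose (21.1%) and 1 fell (5.26%), beside 14.3% and 12.1% of all tested genes, and 14 were not called. The median log2 fold change was 0.39. Hnrnpab, an A/B type protein that binds single-stranded nucleic acids, rose furthest. It was at 98.6 and 144 CPM at rest and at 482 and 446 CPM after stimulation, a clear separation (log2 1.93 ± 0.38, adjusted p = 0.000494, range 1.70 to 2.26). Hnrnpdl, a relative of the AU-rich element binding protein hnRNP D, was at 132 and 129 CPM at rest and at 339 and 362 CPM after stimulation, again with little spread (log2 1.43 ± 0.36, adjusted p = 0.00506). Hnrnpl, which represses exons of CD45, went from 368 and 542 to 1120 and 751 CPM (log2 1.04 ± 0.38, adjusted p = 0.0441). Hnrnpa1, a repressor of exons that competes with SR proteins, went from 22.8 and 16.9 to 73.3 and 34.6 CPM (log2 1.44 ± 0.45, adjusted p = 0.0199). Hnrnpa1 has related pseudogenes that can share its reads. Hnrnpl was no longer called when resting library 4 (adjusted p = 0.221) or either tetramer library (0.408 for library 4 and 0.0534 for library 5) was left out, or with library totals (0.117). Hnrnpa1 was no longer called when resting library 5 (0.05695) or tetramer library 4 (0.487) was left out, or with library totals (0.0573).

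Hnrnph3, a small protein of the H/F family that binds runs of G, was the hnRNP transcript that fell. It stood at 70.02 and 33.3 CPM at rest and at 13.3 and 18.8 CPM after stimulation, so both tetramer values were below both resting values (log2 -1.69 ± 0.46, adjusted p = 0.00870). Leaving out library 4 of the resting pair (log2 -1.04, adjusted p = 0.124) or of the tetramer pair (log2 -1.44, adjusted p = 0.1496) ended the call. Its relatives Hnrnph1, Hnrnph2 and Hnrnpf were at -0.19, 0.46 and -0.12 on the log2 scale, none called. Hnrnpll, which represses CD45 exons in activated T cells, was at 56.6 and 18.2 CPM at rest and at 63.0 and 63.9 CPM after stimulation. Resting library 4 lay close to the tetramer pair and resting library 5 well below it (log2 0.76 ± 0.45, adjusted p = 0.212), and without resting library 4 it was called higher (log2 1.82, adjusted p = 0.00632).

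Several well-known hnRNP transcripts showed no called difference. Hnrnpa0, an intronless gene, had the most counts of any member, at 1421 and 1249 CPM at rest and 1650 and 1135 CPM after stimulation (log2 0.06 ± 0.38, adjusted p = 0.924). Hnrnpk, which binds runs of C, was at 313 and 118 CPM against 173 and 157 CPM, so that the tetramer pair fell between the resting values (adjusted p = 0.508). Hnrnpa2b1 was at 131 and 79.5 CPM against 139 and 98.5 CPM (adjusted p = 0.767). The scaffold protein gene Hnrnpu was higher in both tetramer libraries, at 285 and 317 CPM against 233 and 147 CPM, without passing the threshold (log2 0.66 ± 0.37, adjusted p = 0.185). The same held for Hnrnpc and Hnrnpa3, with log2 fold changes of 0.85 and 0.84 (adjusted p = 0.0820 and 0.0874). Hnrnpd, Hnrnpm, Hnrnpr and Hnrnpul2 had log2 fold changes of 0.30, 0.39, 0.08 and 0.27 (adjusted p = 0.451 to 0.905).

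**Figure D2:**
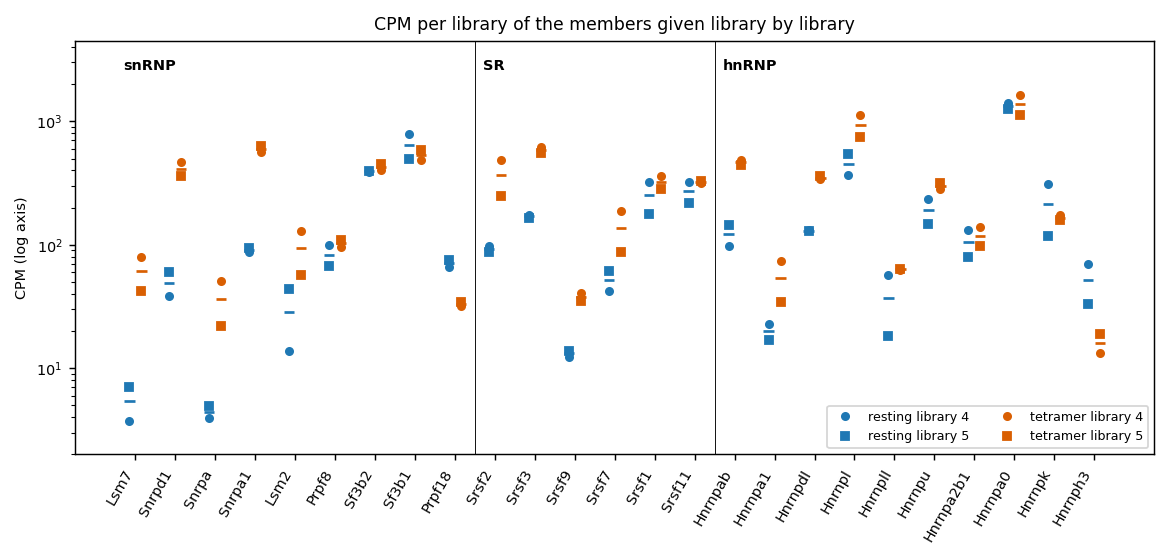
CPM (log axis) in each library for 25 members given library by library, with circles for libraries numbered 4 and squares for libraries numbered 5, blue for resting and orange for tetramer, and bars for the mean of a group. Lsm7, Snrpd1, Snrpa and Snrpa1 lie far apart between groups, while the values of Sf3b1, Srsf1, Hnrnpa0, Hnrnpa2b1 and Hnrnpk overlap.

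Set side by side, the 3 groups differed in how many members were called. In the snRNP group 18 of 46 rose (39.1%) and 1 fell (2.17%), in the SR group 6 of 10 rose and 0 fell, and in the hnRNP group 4 of 19 rose and 1 fell (5.26%), beside 14.3% and 12.1% of all tested genes. Median log2 fold changes were 0.996, 1.06 and 0.39. By subgroup the medians were 2.09 for the U1 and U2 proteins, 1.26 for the Sm ring, 1.06 for LSm, 0.93 for SF3 and 0.63 for the Prp factors. In that order 75%, 71.4%, 30.8%, 33.3% and 23.1% of the transcripts rose. Within these snRNP subgroups, falls were called only among the Prp factors (7.69%). Whether the groups differ from each other was not tested. Scaling moved all medians together: relative to the median of all tested genes the members stood at 0.93 with TMM factors, 0.93 with RLE factors and 0.93 with library totals. On the same relative scale the snRNP, SR and hnRNP groups stood at 1.05, 1.11 and 0.44 with TMM factors, and over the 10 alternatives they ranged from 0.74 to 1.46, 1.01 to 1.13 and 0.37 to 0.59.

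**Figure D3:**
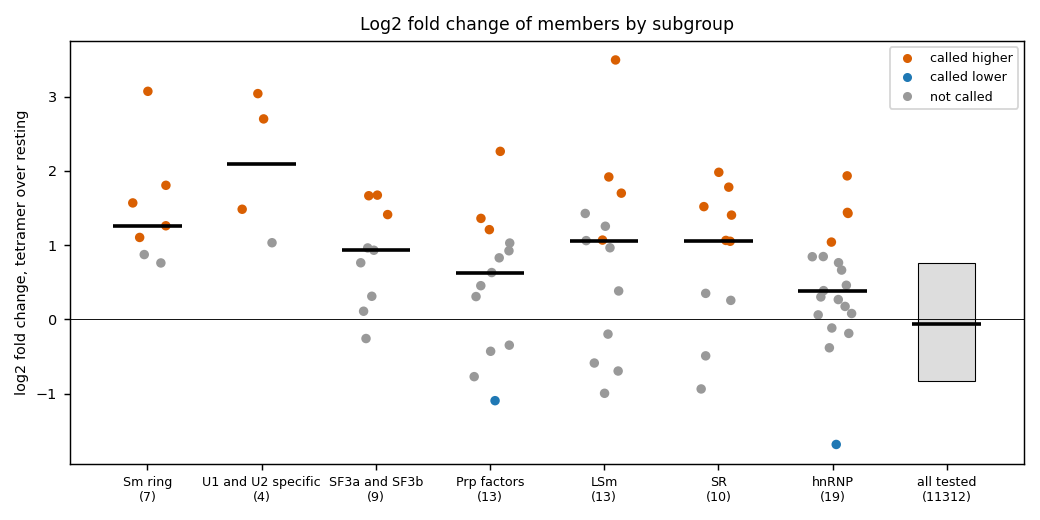
Log2 fold change of tetramer over resting for each member (points, coloured by call) by subgroup, with black bars at the medians and the number of members beside each name. The grey box spans the quartiles of all 11312 tested genes, from -0.83 to 0.76, and the members of the Sm ring and of U1 and U2 all lie above 0.

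The 2 libraries of a group also differed in a way that followed some of the subgroups. In tetramer library 4 the level was higher than in tetramer library 5 for 7 of 7 Sm transcripts and 12 of 13 LSm transcripts, against 50.1% of all tested genes, with median log2 ratios of 0.75 and 0.62. At rest it was the reverse, with library 4 above library 5 for 2 of 7 Sm and 2 of 13 LSm transcripts (49.3% of all tested genes) and median log2 ratios of -0.43 and -0.92. The Prp factors showed neither pattern as strongly, with 5 of 13 higher in tetramer library 4 than in library 5 and 8 of 13 higher in resting library 4 than in library 5. Within the hnRNP group 14 of 19 were higher in resting library 4 than in library 5, and 11 of 19 in tetramer library 4 than in library 5. Library 4 was the higher one for 0 of 4 U1 and U2 transcripts at rest and 3 of 4 after stimulation. For SF3 it was the higher one for 6 of 9 in both groups. For SR it was the higher one for 7 of 10 at rest and 6 of 10 after stimulation. These are descriptions of 4 libraries, with no test.

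The number of members called varied with the library left out. With tetramer library 4 left out 12 members rose, all of them among the 28, and 0 fell, while 5.33% of all tested genes rose and 2.68% fell. With tetramer library 5 left out 21 rose, 20 of them among the 28, and 1 fell, beside 9.89% and 5.75% of all tested genes. Leaving out resting library 4 gave 23 rises, 20 of them among the 28, and 1 fall, of Lsm11 and so neither of the 2 above (13.1% and 12.7% of all tested genes). Leaving out resting library 5 gave 26 rises, 22 of them among the 28, and 3 falls, 1 of them (Hnrnph3) among the 2 (13.9% and 10.5%). With library totals 19 rose and 5 fell (10.5% and 19.9% of all tested genes), the added falls being Lsm11, Prpf39 and Srsf5. RLE factors gave 29 rises and 2 falls (14.6% and 11.6%), the stricter filter 29 and 3 (16.0% and 14.0%), no filter 28 and 2 (13.4% and 10.9%), DESeq2 28 and 2 (14.2% and 11.4%) and limma-voom 28 and 2 (14.2% and 10.9%). The rises of 11 members were called in all 10 alternatives run: Snrpd1, Snrpd3, Snrpa, Snrpa1, Lsm6, Lsm7, Prpf31, Srsf2, Srsf3, Hnrnpab and Hnrnpdl. Neither fall was.

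**Figure D4:**
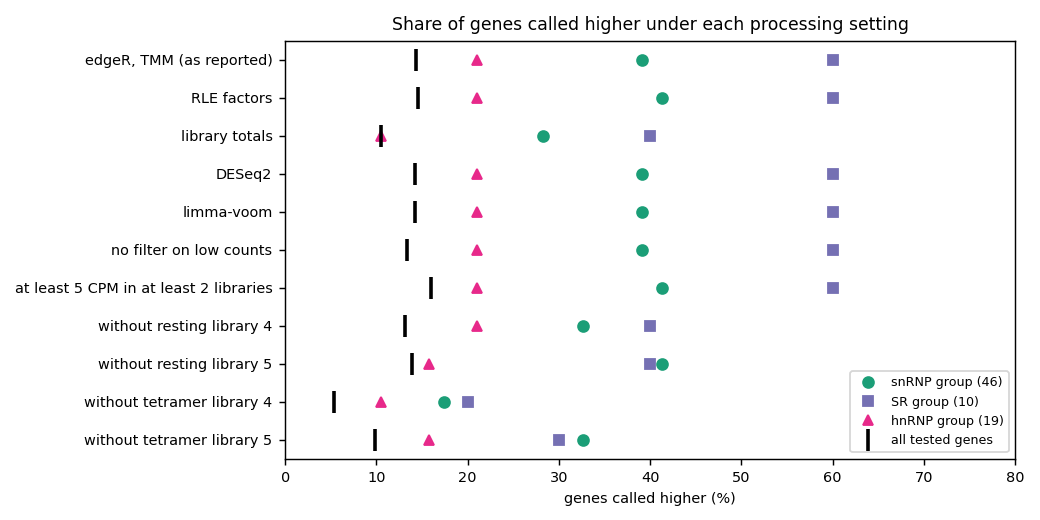
Share of genes called higher (x axis, %) in the snRNP (circles), SR (squares) and hnRNP (triangles) groups under each processing setting, with black bars for all tested genes. Without tetramer library 4 the share of all tested genes drops to 5.33%, and the shares of the 3 groups drop with it.

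Promoters were matched by symbol for 64 of the 75 members in RefSeq (GRCm38.p6), each from 250 bases before to 50 bases after a gene's start. They were searched on both strands for CACGTG, the E-box bound by Myc and Max, for CCGGAAG, bound by ETS factors, and for CCAAT, and the motifs were not required to be apart from each other. CACGTG lay in 9 of 64 members (14.1%) and in 11.8% of 8592 tested genes with a promoter. By group it lay in 4 of 37 snRNP, 0 of 10 SR and 5 of 17 hnRNP members. CCGGAAG lay in 21 of 64 (32.8%, against 21.1%), with 15 of 37 in the snRNP group, 4 of 10 in the SR group and 2 of 17 in the hnRNP group. CCAAT lay in 32 of 64 members (50%, against 43.0%), with 16 of 37 in the snRNP group, 4 of 10 in the SR group and 12 of 17 in the hnRNP group. Among the 24 members with a promoter that rose, CACGTG lay in 1, CCGGAAG in 6 and CCAAT in 12, against 8, 15 and 20 of the 40 others. The member that rose and held CACGTG was Snrpa. The first of its promoters in that table, at chr7:27196222-27196521 (minus strand), is shown with those of Snrpb2 at chr2:143062819-143063118 (plus) and Srsf7 at chr17:80207256-80207555 (minus), which rose and held CCGGAAG, as examples of where the letters lie. Capitals mark CACGTG and CCGGAAG or its reverse complement.
Snrpa: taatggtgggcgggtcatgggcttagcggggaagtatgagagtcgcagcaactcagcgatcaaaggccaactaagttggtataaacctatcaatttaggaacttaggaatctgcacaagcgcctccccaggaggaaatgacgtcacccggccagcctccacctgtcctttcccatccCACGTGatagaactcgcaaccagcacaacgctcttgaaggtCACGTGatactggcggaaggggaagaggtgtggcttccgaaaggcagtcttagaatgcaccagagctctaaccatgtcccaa
Snrpb2: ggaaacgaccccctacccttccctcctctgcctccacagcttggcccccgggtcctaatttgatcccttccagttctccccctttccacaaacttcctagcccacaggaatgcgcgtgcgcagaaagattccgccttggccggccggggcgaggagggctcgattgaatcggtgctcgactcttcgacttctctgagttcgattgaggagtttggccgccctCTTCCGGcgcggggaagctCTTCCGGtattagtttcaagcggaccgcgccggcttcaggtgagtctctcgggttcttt
Srsf7: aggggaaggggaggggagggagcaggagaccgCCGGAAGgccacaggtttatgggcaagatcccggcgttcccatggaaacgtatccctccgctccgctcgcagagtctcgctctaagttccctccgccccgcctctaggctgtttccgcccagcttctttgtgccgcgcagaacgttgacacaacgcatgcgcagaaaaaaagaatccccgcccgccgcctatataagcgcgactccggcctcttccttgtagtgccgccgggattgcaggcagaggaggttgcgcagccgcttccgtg

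Splicing genes outside the members were followed in 5 lists. Of 14 snRNP assembly genes tested, 6 rose (42.9%) and 0 fell, beside 14.3% and 12.1% of all tested genes, with a median log2 fold change of 0.78. Sm proteins are methylated by Prmt5 with its partner Wdr77 and loaded onto snRNA by the SMN and Gemin complex, and those that rose were Gemin4, Strap, Prmt5, Gemin5, Wdr77 and Phax. Prmt5 went from 146 and 228 CPM at rest to 629 and 593 CPM after stimulation (log2 1.71 ± 0.38, adjusted p = 0.00161), and Strap, a cofactor of the SMN complex, from 14.7 and 15.2 to 99.0 and 68.4 CPM (log2 2.48 ± 0.43, adjusted p = 0.000129). Gemin4 was low, at 3.31 and 1.07 CPM against 24.1 and 6.88 CPM (adjusted p = 0.00477), and was not called without tetramer library 4 (adjusted p = 0.355). In that list 2 genes rose when tetramer library 4 was left out, and 4 when library 5 of either group was left out or library totals were used, settings in which 5.33%, 9.89% (tetramer library 5), 13.9% (resting library 5) and 10.5% of all tested genes rose.

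Of 7 proteins with symbols starting Snrnp 1 rose (14.3%) and 0 fell, beside 14.3% and 12.1% of all tested genes. It was Snrnp35, a protein of the minor U11/U12 spliceosome, from 3.73 and 2.99 to 22.7 and 32.0 CPM (log2 3.01 ± 0.56, adjusted p = 0.000314). Of 57 other core spliceosome and exon junction genes 11 rose (19.3%) and 0 fell, beside 14.3% and 12.1% of all tested genes, with a median log2 fold change of 0.34. The largest rises were of Ncbp2, a subunit of the nuclear cap-binding complex (2.30 ± 0.45), Phf5a, a further SF3b subunit (2.12 ± 0.38), and Nhp2l1, a protein of U4 snRNA (1.89 ± 0.40, adjusted p = 0.00115, and 0.0891 without tetramer library 4). Of these core genes 2 rose with tetramer library 4 left out (5.33% of all tested genes) and 7 with tetramer library 5 left out (9.89%), and with library totals 5 rose and 2 fell (10.5% and 19.9%).

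Among 11 kinases and carriers of SR proteins 0 rose and 2 fell (18.2%), beside 14.3% and 12.1% of all tested genes, with a median log2 fold change of -0.31. Clk1, a nuclear kinase of SR proteins, fell from 127 and 94.7 CPM at rest to 27.0 and 25.1 CPM after stimulation, with the groups far apart (log2 -2.09 ± 0.40, adjusted p = 0.000396, range -2.26 to -1.85). Srpk2, a cytoplasmic SR kinase, fell from 138 and 110 to 44.4 and 54.4 CPM (log2 -1.32 ± 0.38, adjusted p = 0.0111), a call that ended when either tetramer library or resting library 4 was left out (adjusted p = 0.0517 to 0.191). With library totals 3 genes of the list fell, where 19.9% of all tested genes fell. Of 38 further splicing regulators 6 rose and 3 fell, shares of 15.8% and 7.89% that lie near the 14.3% and 12.1% of all tested genes. The paralogs Ptbp1 and Ptbp2, which repress exons next to pyrimidine tracts, went opposite ways, Ptbp1 from 214 and 163 to 543 and 427 CPM (log2 1.37 ± 0.37, adjusted p = 0.00795) and Ptbp2 from 18.4 and 15.6 to 6.96 and 3.03 CPM (log2 -1.76 ± 0.58, adjusted p = 0.0259). The helicase gene Ddx17 fell from 567 and 464 to 146 and 205 CPM (log2 -1.56 ± 0.37, adjusted p = 0.00333). None of Ptbp1, Ptbp2 and Ddx17 was called once tetramer library 4 was left out. Ptbp1 was also not called without resting library 5 (adjusted p = 0.0562 to 0.1155 over these settings), nor Ptbp2 without tetramer library 5 (0.0682 to 0.294), and Ddx17 reached 0.121. The number of regulators called, calls newly made included, varied with the library left out. With library totals 2 rose and 5 fell, where 10.5% of all tested genes rose and 19.9% fell.

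**Figure D5:**
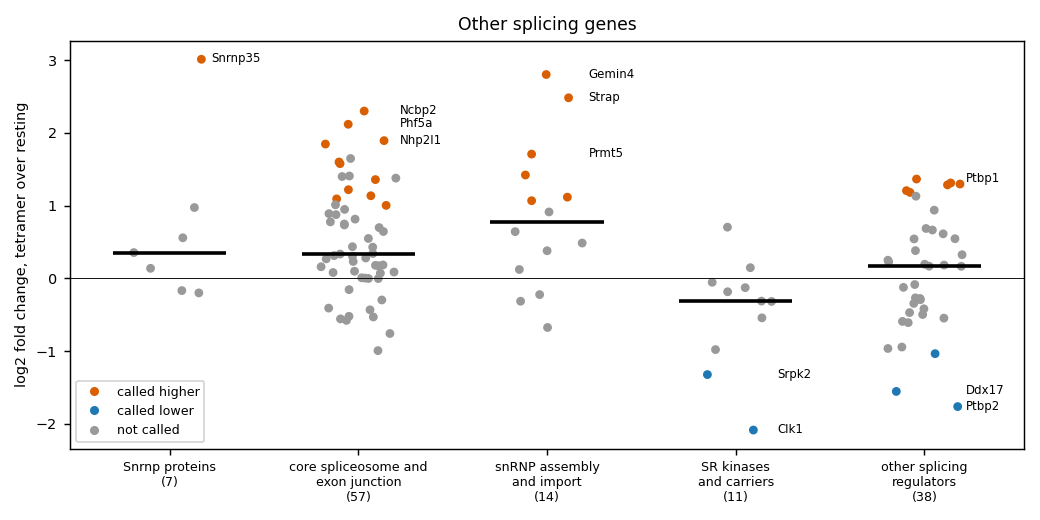
Log2 fold change of tetramer over resting for other splicing genes in 5 lists (points, coloured by call, the number tested beside each list), with black bars at medians and names for up to 3 called genes with the largest change per list. Called genes of the assembly list lie above 0 and those of the SR kinase list, Srpk2 and Clk1, below 0.

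In the GENCODE annotation, exons of 14 members overlap those of another protein-coding gene, among them the called members Hnrnpab, Hnrnph3, Sf3b3, Snrpa, Snrpa1, Snrpd3 and Srsf2. Use of strand in the counting was not given in the sources used here, so reads of overlaps on opposite strands could not be assigned with certainty. The overlaps of Snrpa1, Hnrnpm and Hnrnpul2 lie on the same strand, where strand would not separate the reads. Genes of the Sm and hnRNP families also have processed copies in the genome, and the handling of reads shared with them was likewise not given.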

How the data were processed

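The table that the authors deposited gives raw read counts by gene symbol, in 4 columns. Bowtie2, DESeq2 and the mm9 build are named, per the submitters' processing notes, with no versions, and the counting tool was not given in the sources used here. Columns were matched to groups by name. Of 12021 genes, 1 (Tmem138) was left out because a cell is not a number; no count is below 1.

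Counts were fitted in R 4.3.3 with edgeR 4.0.16 (quasi-likelihood F test, default filter on low counts, TMM, Benjamini-Hochberg over 11312 genes, threshold 0.05). The standard error was taken from the F statistic. TMM factors were 1.16 and 1.06 (resting), 0.890 and 0.917 (tetramer). Resting libraries differed by 33.8 times, and tetramer libraries by 30.6 times, the chi-square expected of sampling noise, so each was counted separately. The 10 alternatives were RLE factors, library totals, DESeq2 1.42.0, limma-voom (limma 3.58.1), no filter, a filter of 5 CPM in 2 libraries, and leaving out each library, the remaining library of its group being assumed to vary like the other group. A block on column numbers was added later.

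Members and lists were chosen with earlier results of these data known. Members given library by library were, per group and direction, at most 4 called members ranked by size of change, the 2 with the highest mean CPM, and 10 listed splicing proteins; values of further members were added after they were seen. From each list of other splicing genes at most 3 called genes, ranked by change, have values. The values of Snrnp70, which was not called, were added after they were seen. Of the called Prp factors, 1 is counted but not reported by name here.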

Additional observations from a re-analysis of the deposited data

How the results depend on the processing

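A fit with a replicate block on column numbers 4 and 5, an alternative chosen after seeing the data, called 1693 genes higher and 1468 lower. It called 24 members higher (23 of the 28), with 17 snRNP, 4 SR and 3 hnRNP members, and 2 members lower, both as without the block. Nothing in the labels ties same-numbered columns to each other, and over 11312 genes the differences between libraries 4 and 5 at rest and after stimulation had a correlation of 0.0486.

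Across the counts of calls and the medians, 115 of 150 values under the 10 other alternatives stayed within 1.5 times the main count or within the spread between libraries, and 35 did not. With library totals, 2250 genes fell and the median of all tested genes was -0.349; 5 members fell (3 snRNP, 1 SR and 1 hnRNP), 2 hnRNP members rose, and medians were 0.576 (members), 0.708 (snRNP) and 0.0830 (hnRNP). With the stricter filter 2 snRNP members fell. Over left-out libraries, all genes called higher numbered 622 to 1629 and lower 313 to 1488, and the median of all genes ranged from -0.118 to 0.0116. Members that rose ranged from 12 to 26 and that fell from 0 to 3; in the snRNP group 8 to 19 rose and 0 to 1 fell, in the SR group 2 to 4 rose and 0 to 1 fell, and in the hnRNP group 2 to 4 rose and 0 to 1 fell. Medians ranged from 0.626 to 1.12 (members), 0.643 to 1.34 (snRNP), 0.933 to 1.10 (SR) and 0.372 to 0.606 (hnRNP). The fits without a library rest on 3 libraries. Of 250 values of single named members under the alternatives, 230 kept their side of the threshold, 19 lost it, 1 gained it, and none of those called turned its direction.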
